A study of Mus musculus with 28 samples.

Results

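The RNA of 8 mouse genes of endothelin, nitric oxide and prostacyclin signaling and of caveolae was examined across sorted bone marrow populations. The genes were listed by name for their places in these pathways, with earlier results of these data known, and all 8 were among the 25251 genes measured: Edn1, Ece1, Ednra, Ednrb, Nos3, Ptgis, Cav1 and Cav2. RNA was sequenced from endothelial cells (ECs; CD45-Ter119-CD31+), mesenchymal stromal cells (MSCs; CD45-Ter119-CD31-CD166-Sca1+) and total BM mononuclear cells (MNCs). ECs and MSCs were taken from the collagenase-released cells that line the bone. The mice were on the C57BL/6 background, were 8 to 10 wk old and carried either WT Flt3 (Flt3+/+) or the Flt3-ITD knock-in allele in homozygous form (Flt3 ITD/ITD), the internal tandem duplication that makes this hematopoietic receptor tyrosine kinase constitutively active. The knock-in is present in every cell of the mouse, so effects within a population and effects of the changed marrow around it cannot be told apart. There were 5 libraries of each genotype for ECs, 5 for MSCs and 4 for MNCs. Each EC or MSC library was made from 100 cells and each MNC library from 200 cells.

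Endothelin-1, the peptide encoded by Edn1, is made as a precursor, is cut to its active form by the membrane protease endothelin-converting enzyme 1 (Ece1), and is read by 2 G protein-coupled receptors. The A receptor (Ednra) is known for contraction and growth of smooth muscle and mesenchymal cells. The B receptor (Ednrb) on endothelium is known for clearance of the peptide and for release of nitric oxide and prostacyclin, which relax vessels. Nitric oxide is made in endothelium by Nos3, prostacyclin by the synthase Ptgis, and caveolin-1 (Cav1), the main coat protein of the membrane pits called caveolae, binds Nos3 and holds it inactive. Cav2 is the partner of caveolin-1 in the caveolar coat.

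Depth ranged from 6377013 to 33880743 counts per library. The sorted populations carried the markers of their labels. The 5 endothelial markers (Cdh5, Pecam1, Tek, Kdr and Emcn) summed to between 1453 and 2059 RPKM in EC libraries, to at most 19.8 RPKM in MSCs and to at most 27.4 RPKM in MNCs, and Cdh5, which encodes VE-cadherin, was between 0 and 0.19 RPKM in MSCs. RPKM is a read density that allows for transcript length and for library depth. Pdgfra marked MSCs at 61.4 to 107 RPKM and was at most 1.82 RPKM in ECs. Lepr and Cxcl12 of the same list were also high in ECs, and Ly6a was higher there (mean 4759 RPKM) than in MSCs (2756 RPKM). The 5 mesenchymal markers, mostly Ly6a, thus summed to 3676 to 6323 RPKM in ECs and 2294 to 3818 RPKM in MSCs. The 5 leukocyte markers stood apart in replicate 2 of Flt3 ITD/ITD ECs, where they summed to 130 RPKM against 5.63 to 25.1 RPKM in the other EC libraries. They also stood apart in replicate 5 of both MSC genotypes, at 99.6 RPKM in Flt3+/+ and 187 RPKM in Flt3 ITD/ITD. Erythroid markers summed to between 2.55 and 1691 RPKM in MNCs. The p-values measure the spread between libraries, which the study describes as separate mice.

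The 8 genes lie on 7 chromosomes of GRCm38, and all are protein coding. Edn1 is at chr13:42301476-42307990, Ece1 at chr4:137862237-137965229 and Nos3 at chr5:24364810-24384474, all on the plus strand. Ednra is at chr8:77663031-77724464, Ednrb at chr14:103814625-103844402 and Ptgis at chr2:167191805-167240604, all on the minus strand. Cav2 (chr6:17281185-17289115) and Cav1 (chr6:17306335-17341452) are neighbors on the plus strand, 17219 bases apart. The library kit does not mark strand, so reads from 294 exonic bases that Nos3 shares with Atg9b on the opposite strand cannot be assigned to either gene. Nos3 also shares 1040 exonic bases with the antisense gene Gm15587, which was not among the genes measured. Atg9b was at 0.48 to 2.42 RPKM in ECs and at no more than 0.68 RPKM elsewhere.

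The sequence before the annotated start was available from RefSeq (GRCm38.p6) for 6 of the 8 genes, Nos3 and Ptgis being the others. Shown are the 250 bases that end at the base before the start for the ligand, for the receptor and the enzyme that were present outside ECs, and for the 2 neighboring caveolin genes. Each is written 5′ to 3′ on the strand of the gene, for chr13:42301226-42301475 (Edn1), chr4:137861987-137862236 (Ece1, the first of its 4 starts), chr8:77724453-77724702 (Ednra), chr6:17306085-17306334 (Cav1, the first of 2) and chr6:17280935-17281184 (Cav2). Capitals mark matches, on either strand, to 3 motifs. The AP-1 motif was searched as TGANTCA, where N is any base. The letters used for the binding site of GATA factors were AGATAA. For the box that places transcription starts they were TATAAA.
Edn1: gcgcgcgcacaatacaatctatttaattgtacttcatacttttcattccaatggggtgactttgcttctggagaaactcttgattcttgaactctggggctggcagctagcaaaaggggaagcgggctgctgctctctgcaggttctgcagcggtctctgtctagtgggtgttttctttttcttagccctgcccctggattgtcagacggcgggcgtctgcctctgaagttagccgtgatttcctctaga
Ece1: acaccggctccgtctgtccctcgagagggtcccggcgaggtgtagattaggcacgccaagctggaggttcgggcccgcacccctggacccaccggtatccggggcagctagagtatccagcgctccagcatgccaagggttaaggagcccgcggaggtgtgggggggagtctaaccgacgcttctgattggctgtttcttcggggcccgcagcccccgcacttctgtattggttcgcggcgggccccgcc
Ednra: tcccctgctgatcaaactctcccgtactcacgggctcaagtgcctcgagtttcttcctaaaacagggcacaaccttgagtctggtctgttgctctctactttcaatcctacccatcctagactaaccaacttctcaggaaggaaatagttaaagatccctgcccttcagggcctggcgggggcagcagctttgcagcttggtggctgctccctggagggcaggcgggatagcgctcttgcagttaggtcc
Cav1: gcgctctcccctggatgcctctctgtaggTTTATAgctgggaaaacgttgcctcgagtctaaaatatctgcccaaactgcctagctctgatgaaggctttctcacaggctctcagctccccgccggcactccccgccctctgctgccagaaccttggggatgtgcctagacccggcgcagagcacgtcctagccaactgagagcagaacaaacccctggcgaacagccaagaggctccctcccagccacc
Cav2: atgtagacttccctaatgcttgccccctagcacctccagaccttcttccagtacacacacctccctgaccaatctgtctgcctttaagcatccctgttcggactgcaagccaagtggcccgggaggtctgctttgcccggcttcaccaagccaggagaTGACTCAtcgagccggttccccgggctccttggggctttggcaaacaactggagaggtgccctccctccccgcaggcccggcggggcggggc
Cav2 held an AP-1 match at position -92 relative to its start, and 6.75% of all 32851 windows of this length held that motif. Cav1 held a reverse match to the last of these motifs at position -221 relative to its start, and 12.4% of all windows held that motif. The GATA motif, found in 9.99% of all windows, was in none of the windows of the 6 genes. The letters GGAAG, the core of an ETS site, were found in the windows shown of Edn1, Ednra and Cav2 in that of Ednrb and before another start of Ece1, and in 64.1% of all windows. The Ece1 window had 22 CpG dinucleotides, that of Ednra 6 and that of Edn1 9, with 10 each in those of Cav1 and Cav2. The median over all windows was 6 and the upper quartile was 16. The matches describe letters only, and binding was not measured.

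Edn1 was found almost entirely in ECs. Its level in the 5 Flt3+/+ EC libraries was 45.2, 72.1, 52.9, 96.2 and 18.0 RPKM, against 114, 26.1, 67.7, 48.8 and 92.9 RPKM in those of Flt3 ITD/ITD mice. The lowest EC library was thus above every MSC library, where Edn1 was 0, 2.54, 3.57, 5.18 and 1.95 RPKM in Flt3+/+ and 0, 1.44, 0.99, 0.44 and 5.24 RPKM in Flt3 ITD/ITD mice. Over both genotypes the mean was 63.3 ± 31.0 RPKM (SD, n = 10) in ECs and 2.14 ± 1.97 RPKM (SD, n = 10) in MSCs. The difference was 4.72 ± 0.78 on the log2 scale (SE; edgeR's quasi-likelihood test, adjusted p = 5.86e-05). Beside the Edn1 counts of MSCs, 1292 in all, the endothelial markers Cdh5, Kdr and Emcn were at most 0.19 RPKM, but Tek was at 4.94 to 19.6 RPKM. Pecam1 reached 1.93 RPKM in replicate 5 of Flt3 ITD/ITD MSCs, the MSC library with the highest Edn1. The part of ECs in the Edn1 counts of MSCs was not tested. The 8 MNC libraries held 1 Edn1 count together, against 26968 in ECs, a ratio of 19848 after scaling to depth, with a 95% exact counting interval of 3562 to 783967. Such intervals cover counting error only. In bulk libraries, fewer cells with a transcript and less RNA per cell cannot be told apart.

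Ece1, the enzyme that activates the ligand, was present in all 28 libraries. Its level was 159, 191, 263, 170 and 252.1 RPKM in Flt3+/+ ECs and 215, 420, 342, 199 and 207 RPKM in Flt3 ITD/ITD ECs. MSCs followed with 86.0, 58.6, 85.7, 94.9 and 64.95 RPKM in Flt3+/+ and 76.1, 112, 110, 94.2 and 87.3 RPKM in Flt3 ITD/ITD mice. MNCs had the lowest levels, 8.84, 5.91, 4.44 and 4.94 RPKM in Flt3+/+ and 10.2, 11.7, 26.8 and 16.5 RPKM in Flt3 ITD/ITD mice. The 3 populations did not overlap. ECs exceeded MSCs by 1.25 ± 0.20 on the log2 scale (SE; edgeR, adjusted p = 2.26e-05) and MSCs exceeded MNCs by 3.28 ± 0.23 (SE; edgeR, adjusted p = 2.13e-11). The ligand and the enzyme thus differed in breadth, with Edn1 near 0 and Ece1 at 11.2 ± 7.47 RPKM (SD, n = 8) in MNCs.

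The receptors took opposite places in ECs and MSCs. Ednrb was 55.9, 107, 54.6, 40.2 and 37.2 RPKM in Flt3+/+ ECs and 33.5, 37.8, 85.6, 78.7 and 61.0 RPKM in Flt3 ITD/ITD ECs. In MSCs it was 0.06, 3.19, 0.04, 0 and 0.94 RPKM in Flt3+/+ and 0.87, 0.06, 2.05, 0.03 and 0.06 RPKM in Flt3 ITD/ITD mice, all below the lowest EC library. ECs exceeded MSCs by 6.15 ± 0.96 on the log2 scale (SE; edgeR, adjusted p = 1.80e-05). MNCs were as low as MSCs, with 0.84, 1.5, 0.13 and 1.59 RPKM in Flt3+/+ and 0.09, 0.23, 0.29 and 1.13 RPKM in Flt3 ITD/ITD mice. The difference of 0.22 ± 0.83 on the log2 scale (SE) between MSCs and MNCs did not pass the test (edgeR, adjusted p = 0.861).

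Ednra was the receptor of MSCs, at 10.95, 23.1, 0.60, 7.99 and 2.25 RPKM in Flt3+/+ and 17.6, 3.64, 6.89, 5.47 and 7.90 RPKM in Flt3 ITD/ITD mice. The spread among MSC libraries was wide (8.64 ± 6.98 RPKM; SD, n = 10). In ECs it was 4.58, 10.8, 0, 0.09 and 0.06 RPKM in Flt3+/+ and 0.36, 0.04, 0.10, 0 and 0.02 RPKM in Flt3 ITD/ITD mice. Replicates 1 and 2 of Flt3+/+ ECs held 222 and 887 Ednra counts, against at most 10 in any other EC library. The fitted difference for ECs against MSCs was -4.22 ± 1.16 on the log2 scale (SE; edgeR, adjusted p = 0.00639), and the log2 ratio of mean RPKM, which those 2 EC libraries raise, was -2.43. Without those 2 libraries, which were left out after their values had been seen, the fitted difference for ECs against MSCs was -7.23 (edgeR, adjusted p = 2.77e-04). The same 2 libraries had the highest Acta2, the smooth muscle actin, at 124 and 106 RPKM, against 0.78 to 62.9 RPKM in the other ECs. Their summed mural and smooth muscle markers, 727 and 276 RPKM, lay within the range of the other EC libraries (74.7 to 1033 RPKM). That sum was mostly Rgs5. Of the same list, Myh11 was 5.18 and 1.76 RPKM in these 2 libraries and reached 10.9 RPKM in another EC library. Des was 0.26 and 0.01 RPKM in them and reached 2.88 RPKM in another EC library. Replicate 1 also held the only Cspg4 above 0.02 RPKM among ECs (1.01 RPKM), the highest Pdgfra (1.82 RPKM, next 0.55 RPKM) and an erythroid sum of 97.9 RPKM, against at most 17.9 RPKM in the other ECs. The part of other cells in the Ednra values was not tested. In MNCs, Ednra was 0.20, 0.08, 2.19 and 0 RPKM in Flt3+/+ and 0.67, 1.79, 0.01 and 0.65 RPKM in Flt3 ITD/ITD mice, and it did not pass the test against ECs (edgeR, adjusted p = 0.693).

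Set against each other per length, Ednrb made up between 90.8% and 100% of the summed receptor RPKM in the 10 EC libraries, with a median of 99.9%. In the 10 MSC libraries it made up between 0% and 29.5%, with a median of 3.17%, so that the populations did not overlap. In MNCs the share ran from 5.603% to 100%, with both receptors together at 0.30 to 2.32 RPKM.

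**Figure D1:**
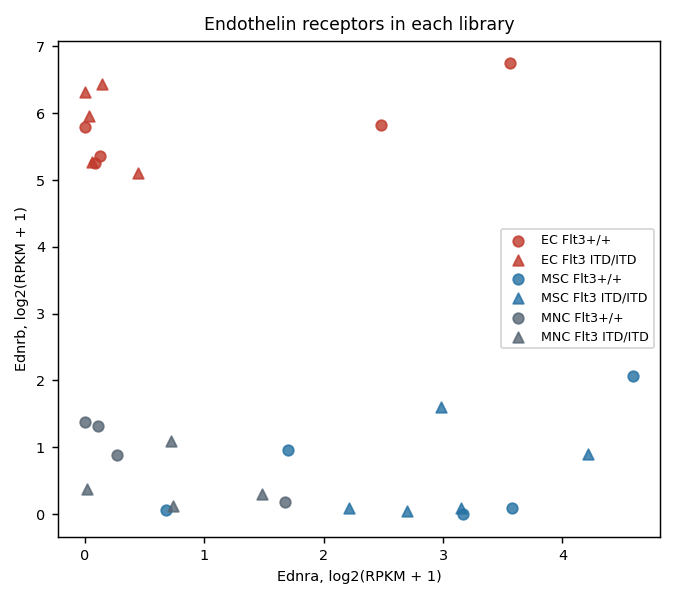
Level of Ednra (horizontal) against Ednrb (vertical) in each of the 28 libraries, both as log2(RPKM + 1); colors are populations, circles Flt3+/+ and triangles Flt3 ITD/ITD. ECs lie high on the Ednrb axis, MSCs spread along the Ednra axis, and 2 EC libraries, replicates 1 and 2 of Flt3+/+, had both (Ednra 4.58 and 10.8 RPKM).

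Nos3, the endothelial nitric oxide synthase, was 9.07, 7.89, 18.1, 12.3 and 5.32 RPKM in Flt3+/+ ECs and 7.73, 1.86, 11.6, 5.89 and 5.08 RPKM in Flt3 ITD/ITD ECs. It was at 0 in 9 of the 10 MSC libraries, and the remaining MSC library, replicate 5 of Flt3+/+, held 10 counts (0.07 RPKM). In MNCs it was 0.30, 0.04, 0 and 0 RPKM in Flt3+/+ and 0.15, 0.04, 0.08 and 0.51 RPKM in Flt3 ITD/ITD mice. The EC counts (6534) stood to those of MSCs in a ratio of 851 after scaling to depth (95% exact counting interval, 463 to 1776). ECs exceeded MNCs by 5.95 ± 1.05 on the log2 scale (SE; edgeR, adjusted p = 8.47e-05). MNCs, with 85 counts in all, also exceeded MSCs (edgeR, adjusted p = 8.63e-04), at levels of at most 0.51 RPKM. Nos3 was below the low-count filter within MSCs and within MNCs and entered that comparison through its level in ECs.

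Ptgis, which makes prostacyclin, was found in MSCs and was near 0 in ECs and MNCs. Its level was 57.2, 80.0, 56.7, 59.9 and 163 RPKM in Flt3+/+ MSCs and 120, 61.4, 32.2, 162 and 46.3 RPKM in Flt3 ITD/ITD MSCs. Of the 10 EC libraries, 8 held at most 1 Ptgis count each, and the other two were replicate 4 of Flt3+/+ with 29 counts (1.26 RPKM) and replicate 5 of Flt3 ITD/ITD with 16 counts (0.35 RPKM). The lowest MSC library was above the highest EC library. The difference for ECs against MSCs was -9.45 ± 1.04 on the log2 scale (SE; edgeR, adjusted p = 2.85e-07). The 8 MNC libraries held 1 count, and the ratio of EC to MNC counts was 34.6 after scaling to depth (95% exact counting interval, 5.91 to 1395). Ptgis was below the low-count filter within ECs and within MNCs and entered that comparison through its level in MSCs. It was called with all libraries (edgeR, adjusted p = 0.0163), but not without replicate 4 of Flt3+/+ ECs (1.45 on the log2 scale; adjusted p = 0.9999) or without replicate 5 of Flt3 ITD/ITD ECs (3.23; adjusted p = 0.116).

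Cav1 had the highest level of the 8 genes in ECs, at 1640, 2116, 2250, 2093 and 2267 RPKM in Flt3+/+ and 2229, 2209, 2261, 2027 and 1515 RPKM in Flt3 ITD/ITD mice. It was also the highest of the 8 in MSCs, with 324, 193, 227, 314 and 231 RPKM in Flt3+/+ and 247, 272, 233, 242 and 241 RPKM in Flt3 ITD/ITD mice. All 8 MNC libraries together held 2 counts, against 1096805 in ECs (ratio after scaling to depth, 403607; 95% exact counting interval, 111730 to 3332719) and 169997 in MSCs. ECs exceeded MSCs by 2.79 ± 0.23 on the log2 scale (SE; edgeR, adjusted p = 5.08e-10). Among ECs the SD of Cav1 was 13.0% of its mean, the smallest such share of the 8 genes in that population.

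Cav2 was 540, 959, 1193, 891 and 609 RPKM in Flt3+/+ ECs and 720, 1322, 1203, 1128 and 811 RPKM in Flt3 ITD/ITD ECs. In MSCs it was 28.8, 34.1, 44.5, 50.98 and 65.4 RPKM in Flt3+/+ and 50.3, 67.8, 52.7, 176 and 60.4 RPKM in Flt3 ITD/ITD mice. ECs exceeded MSCs by 3.69 ± 0.47 on the log2 scale (SE; edgeR, adjusted p = 9.47e-07). Unlike its neighbor, Cav2 had counts in every MNC library, at 1.73, 0.04, 7.25 and 2.48 RPKM in Flt3+/+ and 5.80, 5.80, 9.44 and 7.48 RPKM in Flt3 ITD/ITD mice. Cav1 was 1.67 to 3.72 times the RPKM of Cav2 in ECs and 1.37 to 11.3 times in MSCs, with medians of 2.05 and 4.67. In MNCs the Cav1 value was at most 0.0041 times that of Cav2.

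**Figure D2:**
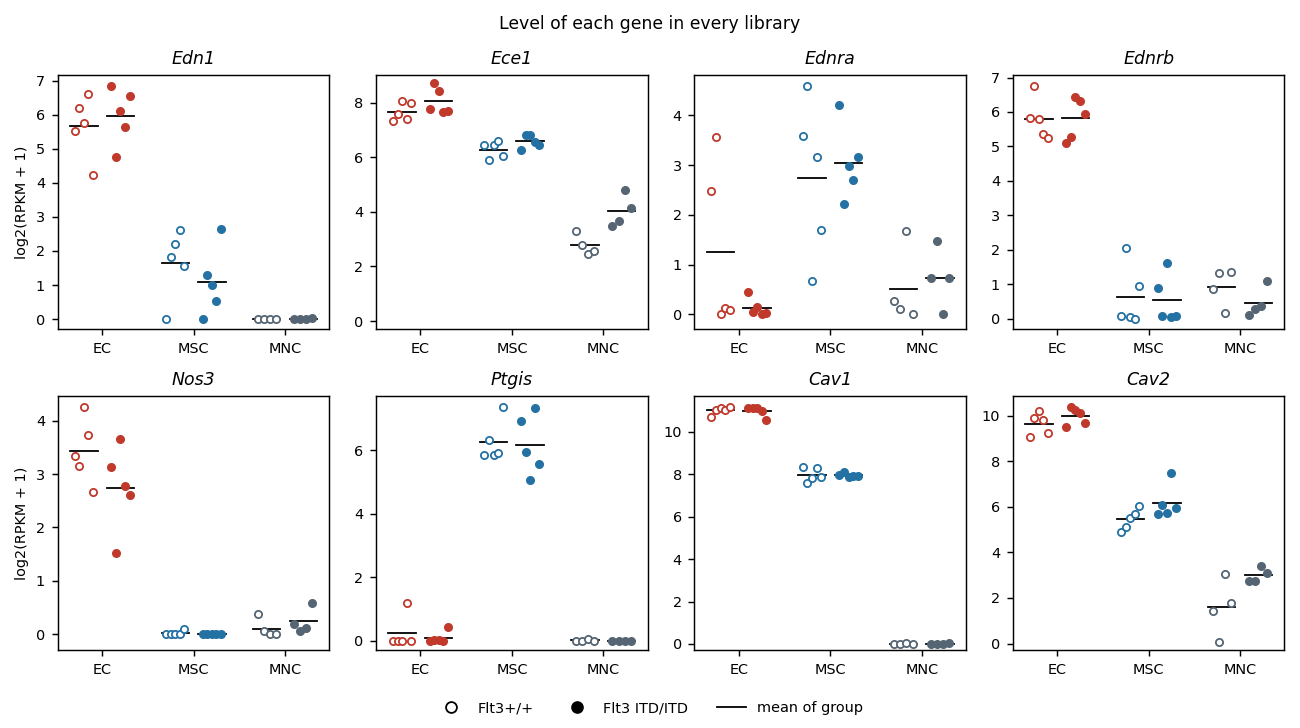
Level of each gene as log2(RPKM + 1) in every library of ECs, MSCs and MNCs; open points are Flt3+/+, filled points Flt3 ITD/ITD, and lines the mean of each group. Edn1, Ednrb, Nos3, Cav1, Cav2 and Ece1 were highest in ECs, Ptgis was high in MSCs alone, and Ednra was highest in most MSC libraries.

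Within ECs the mean levels fell in the order Cav1, Cav2, Ece1, Edn1, Ednrb, Nos3, Ednra and Ptgis. The ranges of Cav1 and Cav2, of Cav2 and Ece1, of Ece1 and Edn1, and of Ednrb and Nos3 did not overlap, whereas those of the other neighbors did. In MSCs the order was Cav1, Ece1, Ptgis, Cav2, Ednra, Edn1, Ednrb and Nos3, and there the ranges of Cav1 and Ece1 and of Cav2 and Ednra did not overlap. In MNCs Ece1 came first and Cav2 second, with overlapping ranges, and no other gene of the 8 exceeded 2.19 RPKM in any library.

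Between ECs and MSCs all 8 genes were called, which required an adjusted p below 0.1 and mean RPKM values at least 1 apart on the log2 scale. Edn1, Ece1, Ednrb, Nos3, Cav1 and Cav2 were higher in ECs and Ednra and Ptgis higher in MSCs. Of all 16897 genes tested, 32.9% were called in this comparison, 16.3% higher in ECs and 16.6% higher in MSCs. Between ECs and MNCs 7 genes were called, all higher in ECs, where 45% of all genes were called, 23.1% higher in ECs and 22% higher in MNCs. Between MSCs and MNCs, 6 were called higher in MSCs and Nos3 higher in MNCs, against 22.2% and 22% of all genes, 44.3% together. Ptgis between ECs and MNCs and Nos3 between MSCs and MNCs are included in these counts. As said above, both entered those tests only through their level in the population not compared. In the Flt3+/+ libraries alone the calls fell to 7, 6 and 5. Lost were Ednra between ECs and MSCs (adjusted p = 0.557), Ptgis between ECs and MNCs (0.123), and Ednra (0.197) and Nos3 (0.259) between MSCs and MNCs.

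The same held for values that did not overlap at all. Every EC library was above every MSC library for 6 of the 8 genes and below for Ptgis, against 3.19% and 2.42% of all 25250 genes with a count. Every EC library was above every MNC library for the same 6 genes, against 6.13% of all genes, and below for none, against 6.34%. Every MSC library was above every MNC library for Ece1, Ptgis, Cav1 and Cav2, against 6.23% of all genes, and below for none, against 8.25%.

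**Figure D3:**
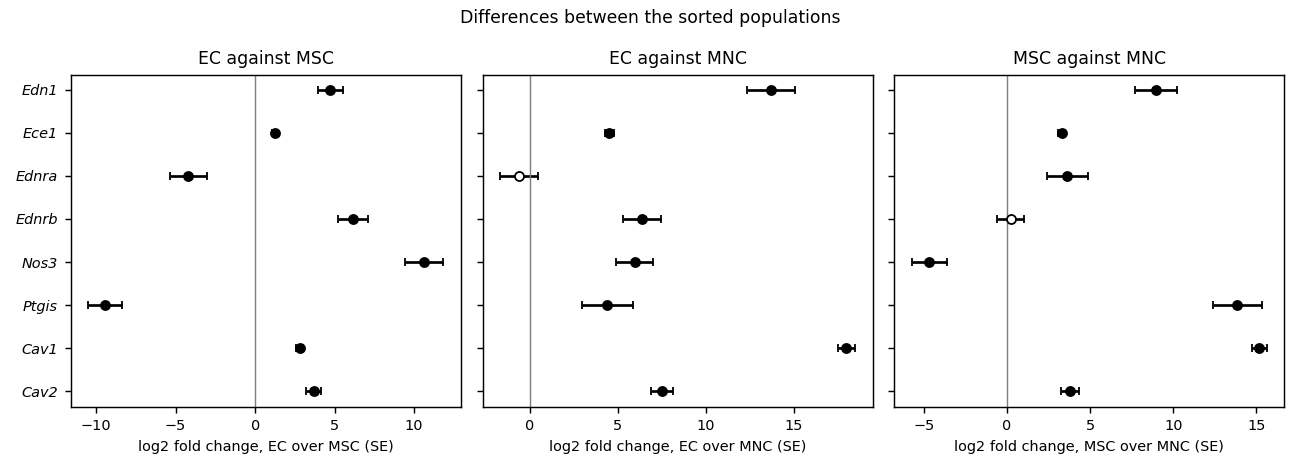
Fitted log2 fold change with its SE for each gene in the 3 comparisons of populations; filled points were called and open points were not. Fitted values of Edn1, Ptgis and Cav1 against MNCs, which held 1 or 2 counts of each, depend on the prior count of the fit. Ptgis and Ednra were the genes lower in ECs than in MSCs.

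Between Flt3+/+ and Flt3 ITD/ITD mice none of the 8 genes was called by edgeR's quasi-likelihood test in any population. Of the 8, 6 passed the filter on low counts in ECs (all but Ednra and Ptgis), 6 in MSCs (all but Ednrb and Nos3) and 4 in MNCs (Ece1, Ednra, Ednrb and Cav2). Among EC genes the same test called 0.0081% of 12351, among MSC genes 0.0295% of 13574 and among MNC genes 0.0144% of 13926, so few genes of any kind passed. At an unadjusted p below 0.05 were 0 of the 6 in ECs, 1 of the 6 in MSCs (Cav2) and 1 of the 4 in MNCs (Ece1), against 4.99%, 4.24% and 10.4% of all genes tested. DESeq2 called 0 of the 7 genes it tested in ECs, 0 of 7 for MSCs and 1 of 5 for MNCs (Ece1). Of all genes it called 2.58% in ECs, 1.29% in MSCs and 322 of 15030 in MNCs, 1.35% being higher in Flt3 ITD/ITD MNCs. The exact test of edgeR called 0 of 6, 0 of 6 and 1 of 4. It called 0.13% of all genes in ECs, 0.147% in MSCs and 148 of 13926 in MNCs, 0.725% being higher in Flt3 ITD/ITD MNCs.

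In ECs the fitted differences (Flt3 ITD/ITD over Flt3+/+) ran from -0.70 ± 0.53 for Nos3 to 0.44 ± 0.27 for Ece1 on the log2 scale (SE), with a median of 0.17, against -0.015 over all genes tested. Edn1 differed by 0.32 ± 0.46, Cav1 by -0.0023 ± 0.14 and Ednrb by 0.026 ± 0.37 (log2, SE). The mean of Nos3 was 10.5 ± 4.91 RPKM in Flt3+/+ and 6.43 ± 3.59 RPKM in Flt3 ITD/ITD ECs (SD, n = 5 each; exact two-sided permutation test, p = 0.159). The genotypes overlapped for each of the 6 genes. The 5 endothelial markers summed to 1453 to 2059 RPKM in Flt3+/+ and 1490 to 2013 RPKM in Flt3 ITD/ITD ECs, and none of the 5 was called. That sum was mostly Emcn, which differed by 0.021 on the log2 scale, and Pecam1 differed by 0.071. Cdh5 and Tek differed by -0.34 and -0.49 (edgeR, unadjusted p = 0.0117 and 0.0103). Kdr differed by 0.45, in the opposite direction (edgeR, unadjusted p = 0.0229). Of all genes tested in ECs, 4.99% had an unadjusted p below 0.05. The means of Ednra, 3.11 RPKM in Flt3+/+ and 0.10 RPKM in Flt3 ITD/ITD ECs, differed through the 2 Flt3+/+ libraries named above (SD 4.74 and 0.15, n = 5 each; exact permutation test, p = 0.286). With no filter on low counts the fitted difference of Ednra was -4.98 ± 2.01 on the log2 scale (SE; edgeR, adjusted p = 0.5604).

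In MSCs Cav2 was the gene that differed most, by 0.93 ± 0.40 on the log2 scale (SE; edgeR, adjusted p = 0.999). Its mean was 44.8 ± 14.4 RPKM in Flt3+/+ and 81.4 ± 53.3 RPKM in Flt3 ITD/ITD MSCs (SD, n = 5 each; exact permutation test, p = 0.0714), and replicate 4 of the latter, at 176 RPKM, was far above the rest. Without that library the difference was 0.38, the lowest value as each library was left out (0.38 to 1.09). The smallest p that 5 against 5 allows is 0.00794. Ece1 differed by 0.37 ± 0.19 (SE; edgeR, adjusted p = 0.999), with means of 78.0 and 95.9 RPKM. The 6 genes tested had a median of 0.056, against 0.030 over all genes. Cav1 differed by -0.0053 ± 0.17 and Ptgis by 0.12 ± 0.47 on the log2 scale (SE). Edn1 and Ednra, at -0.70 ± 1.42 and -0.071 ± 0.77 (log2, SE), had wider errors.

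In MNCs each of the 4 Flt3 ITD/ITD libraries (10.2, 11.7, 26.8 and 16.5 RPKM) was above each of the 4 Flt3+/+ libraries (8.84, 5.91, 4.44 and 4.94 RPKM) for Ece1, as for 3.69% of the 22751 genes with a count in MNCs, and 0.743% were separated in the opposite direction. The difference was 1.26 ± 0.32 on the log2 scale and did not pass over all genes (SE; edgeR, unadjusted p = 0.00343, adjusted p = 0.397). It was called by DESeq2 (1.27; adjusted p = 0.0309), which called 1.35% of all genes higher in Flt3 ITD/ITD MNCs, and by edgeR's exact test (1.26; adjusted p = 0.0525), which called 0.725%. The exact permutation test of the RPKM gave p = 0.0286, the smallest that 4 against 4 allows, and it was the only p below 0.05 among the 24 such tests of the 8 genes in 3 populations. Within replicates 1 and 2 the ratio of the means was 1.49, and within replicates 3 and 4 it was 4.61. Some sums of cell type markers also differed between the MNC genotypes. The endothelial sum did not overlap, at 6.68 to 10.6 RPKM in Flt3+/+ and 11.5 to 27.4 RPKM in Flt3 ITD/ITD MNCs, and was mostly Pecam1, with Tek at no more than 0.02 RPKM in any MNC library. Cdh5 of the same list overlapped, at 0.17 to 1.43 RPKM in Flt3+/+ and 0.17 to 1.21 RPKM in Flt3 ITD/ITD MNCs. The megakaryocyte sum did not overlap either, in the opposite direction, at 11.7 to 30.1 RPKM and 3.66 to 10.2 RPKM. The erythroid sum was 2.55, 364, 1691 and 1309 RPKM in Flt3+/+ and 154, 235, 40.1 and 149 RPKM in Flt3 ITD/ITD MNCs. The leukocyte sum, mostly Lyz2, overlapped, at 12004 to 19272 RPKM in Flt3+/+ and 14870 to 16418 RPKM in Flt3 ITD/ITD MNCs. Itgam alone of that list did not overlap, at 109 to 117 RPKM and 106, 101, 59.2 and 59.3 RPKM (edgeR, adjusted p = 0.443). The part of cell type composition in the Ece1 difference was not tested. Cav2 was 2.88 ± 3.09 RPKM in Flt3+/+ and 7.13 ± 1.73 RPKM in Flt3 ITD/ITD MNCs (SD, n = 4 each; exact permutation test, p = 0.0857), with a fitted difference of 0.97 ± 0.94 (log2, SE) that was 0.56 without replicate 2 and 2.10 without replicate 3 of Flt3+/+ MNCs, the extremes as single libraries were left out. Ednrb differed by -1.46 ± 0.88 on the log2 scale (SE; edgeR, adjusted p = 0.587), and the median of the 4 genes tested was 0.49, against -0.0053 over all genes.

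**Figure D4:**
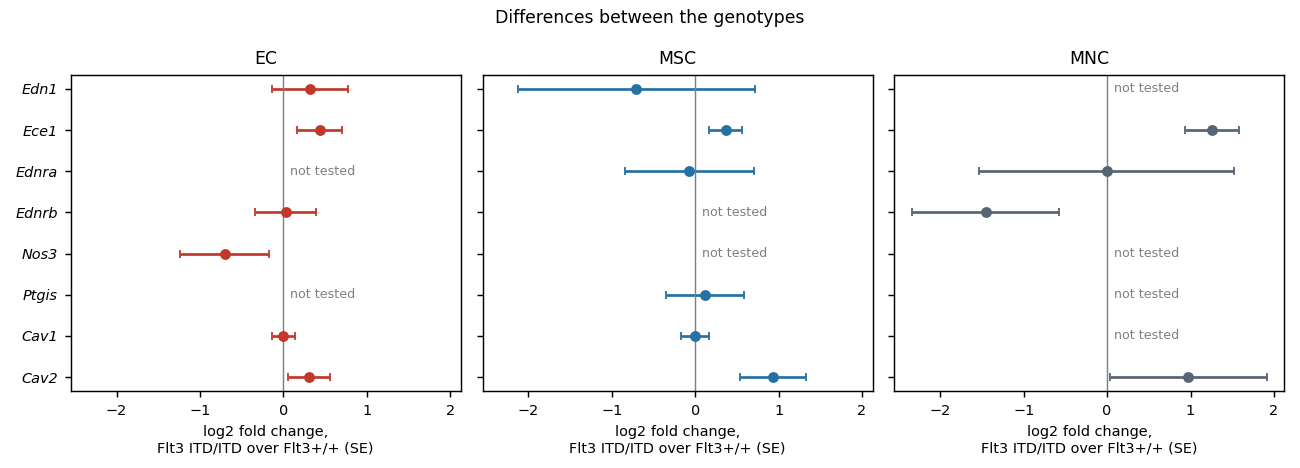
Fitted log2 fold change (Flt3 ITD/ITD over Flt3+/+) with its SE for each gene that passed the filter on low counts in ECs, MSCs and MNCs; genes below the filter are written as not tested. None was called, and Ece1 in MNCs, at 1.26 ± 0.32, lay farthest from 0 in units of its SE.

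Whether the genotype difference itself differed between populations was tested as an interaction in the model of all 28 libraries. None of the 8 genes passed in any of the 3 contrasts, in which 0.379% (ECs against MSCs), 0.0118% (ECs against MNCs) and 0.00592% (MSCs against MNCs) of 16897 genes passed. DESeq2 also called 0 of the 8 in each, with 5.55%, 2.99% and 2.15% of all genes called. Of the 24 tests, 4 had an unadjusted p below 0.05, as had 10.6%, 8.23% and 5.94% of all genes in the 3 contrasts. For Ednra the genotype effect in ECs minus that in MSCs was -5.01 ± 2.17 (SE; edgeR, adjusted p = 0.388), and in ECs minus that in MNCs -5.09 ± 2.31 (SE; edgeR, adjusted p = 0.562). Both turned when replicates 1 and 2 of Flt3+/+ ECs were left out, to 1.01 and 0.93. For Nos3 the effect in MSCs minus that in MNCs was -4.76 ± 1.94 (SE; edgeR, adjusted p = 0.713), which rests on the 10 counts of a single MSC library. For Ece1 the effect in MSCs minus that in MNCs was -0.90 ± 0.42 (SE; edgeR, adjusted p = 0.794).

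The genes most like each of the 8 across the 28 libraries were found by Pearson's r of log2(RPKM + 1) over 13727 genes with a mean of at least 1 RPKM. These correlations mostly follow the 3 populations, which all genes share, and are given as a description. Nos3 was most like Sox17 (r = 0.99), Sox18 (0.97) and Dysf (0.97), the Sox genes encoding transcription factors of endothelium. Ednrb was most like Podxl, Emcn and Tcf15 (each r = 0.97), of which Emcn encodes the sialomucin endomucin of sinusoidal and venous endothelium. Edn1 was most like Magi1 (r = 0.97), Calcrl (0.96), the receptor of adrenomedullin and CGRP, and Epas1 (0.96), which encodes HIF-2α.

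Cav1 was most like Tm4sf1 (r = 0.999) and the basement membrane collagens Col4a1 and Col4a2 (0.99 each), and Cav2 was most like Tek, Sptbn1 and Tspan12 (0.96 each). Tek encodes the angiopoietin receptor Tie2. Ptgis was most like Fibin, Thbs4 and Ssc5d (0.99 each), which were at 125, 233 and 15.9 RPKM in MSCs and at most 0.032 RPKM in ECs. Ece1 was most like Lrrc8a (r = 0.98), 2700089E24Rik (0.97) and Sepw1 (0.97). Ednra had the least close partners, Efemp1 (r = 0.84), Gpc3 (0.84) and Arhgap42 (0.82), the matrix gene Efemp1 being at 193 RPKM in MSCs and 8.98 RPKM in ECs.

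Correlations among the genes within a population were computed for those with a mean of at least 1 RPKM there, 7 genes in ECs, 6 in MSCs and Ece1 and Cav2 in MNCs. Among the 10 EC libraries the pair with the highest Pearson's r was Ece1 and Cav2 (r = 0.62, Spearman's rho = 0.62), and among the 10 MSC libraries Ece1 and Cav1 (r = 0.51, rho = 0.53). The neighbors Cav1 and Cav2 had r = 0.43 among ECs and r = -0.11 among MSCs. The pair with the highest rho in ECs was Ece1 and Cav1 (rho = 0.68, r = 0.51). The most negative values in MSCs were r = -0.52 for Ece1 and Ptgis and rho = -0.55 for Ednra and Cav2, and Ece1 and Cav2 had r = 0.54 among the 8 MNC libraries. All pairs share their libraries and thus depth, and the values are a description.

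Other genes of the same pathways were taken from 4 lists. Of the 7 other endothelin genes, 4 were tested between genotypes in each population and none was called. The other ligand genes, Edn2 and Edn3, were at most 0.12 RPKM in any library. Kel, an erythroid surface protease that cuts endothelin-3, was the highest of the list, at 38.2 RPKM in MNCs (0.04 to 133 RPKM) and at most 0.17 RPKM in ECs and MSCs. The G protein genes Gna11 and Gnaq, which act below both receptors, were at 23.2 and 20.2 RPKM in ECs, 13.4 and 9.74 RPKM in MSCs and 7.56 and 7.95 RPKM in MNCs. Between ECs and MSCs, 1 of 5 tested was higher in ECs (Gnaq) and 1 higher in MSCs (Mme, neprilysin, which degrades endothelin), where 16.3% and 16.6% of all genes were called. The median log2 fold change of the 5 was 0.83, against -0.014 over all genes tested. Against MNCs, 3 of the 5 were higher in ECs (Gna11, Gnaq and Mme) and 1 in MSCs (Mme), whereas Kel was lower in both. Of all genes, 23.1% were called higher in ECs, 22.2% higher in MSCs and 22% lower in either.

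Of the 19 other nitric oxide genes, 18 were tested between populations. Between ECs and MSCs, 3 were higher in ECs (Klf2, Nos2 and Gucy1a1, listed as Gucy1a3) and 3 higher in MSCs (Ddah2, Pde5a and Slc7a1), with a median of 0.47, where 16.3% and 16.6% of all genes were called and the median was -0.014. Gucy1a1 was uneven among EC libraries, at 0.35 to 20.65 RPKM, and overlapped MSCs, at 0.05 to 4.17 RPKM. Between ECs and MNCs, 9 were higher and 3 lower in ECs, against 23.1% and 22% of all genes, with a median of 1.24 against 0. The inducible synthase Nos2 was found in ECs at 0.10 to 15.9 RPKM (7.18 ± 5.41; SD, n = 10), where Nos3 was at 8.48 ± 4.59 RPKM, and was at most 0.40 RPKM in MSCs and 0.03 RPKM in MNCs. Klf2, the flow-responsive factor known to raise Nos3, was at 159 ± 66.0 RPKM in ECs and 48.7 ± 13.5 RPKM in MSCs (SD, n = 10 each; edgeR, adjusted p = 0.00156). Klf4, a related factor, was at 219 RPKM in MSCs and 211 RPKM in ECs and did not pass between them (edgeR, adjusted p = 0.545). Pts, of the synthesis of the cofactor tetrahydrobiopterin, was highest in MNCs, at 86.4 RPKM. None of the list was called between genotypes, with 15 tested in either sorted population and 14 in MNCs. The synthase-trafficking gene Nostrin differed most in MNCs, by 2.02 ± 0.51 (SE; edgeR, adjusted p = 0.397).

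Most of the called prostanoid genes were, like Ptgis, higher in MSCs than in ECs. Of 7 tested genes, 4 were higher in MSCs (Pla2g4a, Ptgs2, Ptges and Ptgir) and Ptgs1 was higher in ECs, with a median log2 fold change of -3.46 against -0.014 over all genes, of which 16.6% were higher in MSCs and 16.3% in ECs. Against MNCs 5 of the 7 were lower in ECs, as were 22% of all genes, with a median of -4.00 against 0. Cyclooxygenase-2 (Ptgs2), which makes the substrate of the synthase, was at 15.8 RPKM in MSCs (0.03 to 33.96 RPKM) and at most 0.11 RPKM in ECs. Cyclooxygenase-1 (Ptgs1) was at 28.7 RPKM in ECs and 11.3 RPKM in MSCs. Pla2g4a, the phospholipase that frees arachidonic acid, was at 19.8 RPKM in MSCs and 0.14 RPKM in ECs. The prostacyclin receptor gene Ptgir was at 5.13 RPKM in MSCs, 7.28 RPKM in MNCs and 0.75 RPKM in ECs. None of the list was called between genotypes, with 1 gene tested in ECs, 5 tested in MSCs and 7 tested in MNCs.

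Of the 7 other caveola genes, 5 were tested between populations. Cavin2, listed as Sdpr, followed the EC pattern, at 451 RPKM in ECs, 7.10 RPKM in MSCs and 0.06 RPKM in MNCs, and Ehd2 was also called higher in ECs than in MSCs (60.8 and 15.3 RPKM). Cavin1, listed as Ptrf and needed for caveolae to form, was at 391.6 and 226 RPKM and did not pass between ECs and MSCs (edgeR, adjusted p = 0.268). Cavin3, listed as Prkcdbp, was at 91.9 and 91.4 RPKM and did not pass either (adjusted p = 0.587). Against MNCs, the same 4 genes were called higher both in ECs (23.1% of all genes) and in MSCs (22.2%), with medians of 8.63 and 7.13 against 0 and -0.021 over all genes. Cavin3 was at 0 RPKM in every MNC library. None was called between genotypes, with 5 tested in either sorted population and 3 in MNCs.

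**Figure D5:**
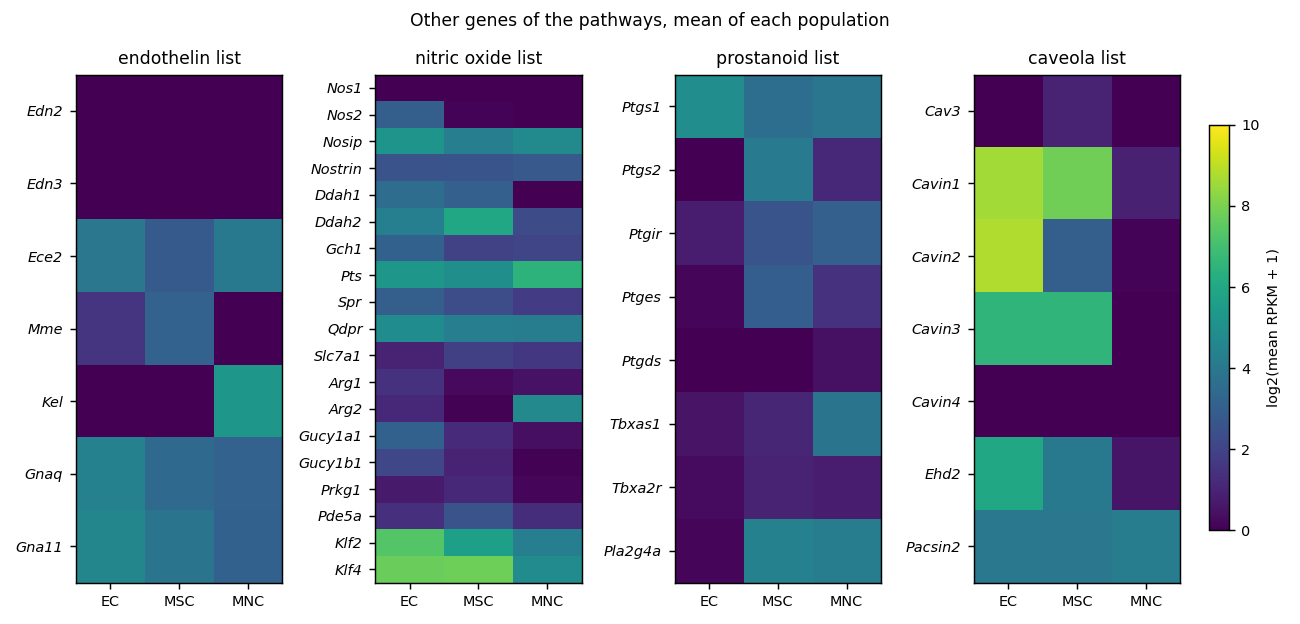
Mean level, as log2(mean RPKM + 1), of the other genes of the endothelin, nitric oxide, prostanoid and caveola lists in ECs, MSCs and MNCs. Cavin2 is bright in ECs alone, Ptgs2 and Ptges are brightest in MSCs, and Kel, Arg2 and Tbxas1 in MNCs.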

How the data were processed

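RNA of 28 libraries was sequenced by the authors after SMARTer amplification of sorted cells. Per the submitters' notes and the study's methods, reads were aligned with Bowtie to mm10 transcripts, reads that mapped to more than a single place were discarded, and genes were quantified with RSEM (versions not given in the sources used here). For each library the authors deposited an estimated count per gene, given as whole numbers, and an RPKM value. Members and lists were chosen with earlier results of these data known.

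Counts were tested with edgeR 4.0.16 in R 4.3.3 (TMM normalization, filterByExpr, quasi-likelihood F-test, Benjamini-Hochberg adjustment over all genes tested). Genotypes were compared within each population, and populations and interactions in 1 model of 6 groups. Calls required an adjusted p below 0.1 and mean RPKM values at least 1 apart on the log2 scale (for interactions, the adjusted p alone). SE is the log2 fold change divided by the square root of F. RPKM values were compared by exact two-sided permutation tests in Python 3.11.15 with scipy 1.17.1. The fits were tested on simulated data. Alternatives were DESeq2 1.42.0, edgeR's exact test, RLE normalization, no filter and the adjusted p alone. Others were Flt3+/+ libraries only, a model of all libraries, a replicate block and each library left out. Fits without leukocyte-marked libraries or without the 2 ECs with high Ednra were added after the data were seen. The leukocyte-marked libraries left out were replicate 2 of Flt3 ITD/ITD ECs and replicate 5 of Flt3 ITD/ITD MSCs. Replicate 5 of Flt3+/+ MSCs was kept. The text names all 8 genes, the 3 highest genes of each pathway list, and the 3 genes most like each of the 8. Other list members were named after their values were seen. Same-numbered libraries of different genotype were not treated as pairs, and no label ties libraries of different populations to a mouse. Depth was 6377013 to 33880743 counts per library, and no 2 libraries held identical values.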

Additional observations from a re-analysis of the deposited data

Results flagged for a closer look

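In each of the 48 combinations of gene, population and genotype, the highest and lowest library were set against the rest. In 15 of them 1 library lay farther from its nearest neighbor, relative to the range of its group, than Dixon's 95% limit. That limit is passed by chance in about 5% of groups of normally distributed values, which does not hold for groups of zeros: in 6 of the 15 all other libraries were at 0, so that any count passed.

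Of these, 7 were at 29 counts or fewer in groups where no other library held more than 1 count. They were Edn1 at 0.03 RPKM in replicate 4 of Flt3 ITD/ITD MNCs, Nos3 at 0.07 RPKM in replicate 5 of Flt3+/+ MSCs, Ptgis at 1.26 RPKM in replicate 4 of Flt3+/+ ECs, at 0.35 RPKM in replicate 5 of Flt3 ITD/ITD ECs and at 0.04 RPKM in replicate 3 of Flt3+/+ MNCs, and Cav1 at 0.03 RPKM in replicate 3 of Flt3+/+ MNCs and at 0.02 RPKM in replicate 4 of Flt3 ITD/ITD MNCs. Ednra at 0.36 RPKM in replicate 1 of Flt3 ITD/ITD ECs (next 0.10 RPKM) and Nos3 at 0.30 RPKM in replicate 1 of Flt3+/+ MNCs (next 0.04 RPKM) were of the same low kind.

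The others stood on more reads. Replicate 5 of Flt3 ITD/ITD MSCs had 5.24 RPKM of Edn1, above the next at 1.44 RPKM, and was also the MSC library with the highest leukocyte markers (187 RPKM). Replicate 5 of Flt3+/+ MSCs, the next highest in leukocyte markers (99.6 RPKM), had 163 RPKM of Ptgis, above the next at 80.0 RPKM. Similar levels were found with fewer leukocyte markers. Replicate 4 of Flt3+/+ MSCs had 5.18 RPKM of Edn1 beside 15.55 RPKM of leukocyte markers. Replicate 4 of Flt3 ITD/ITD MSCs had 162 RPKM of Ptgis beside 8.73 RPKM. All MNC libraries together held 1 count of Edn1 and 1 count of Ptgis. The part of leukocytes in either value was not tested. Replicate 3 of Flt3+/+ MNCs had 2.19 RPKM of Ednra (115 counts), above the next at 0.20 RPKM. Replicate 2 of Flt3+/+ ECs, with the highest Ednra of all ECs, also had the highest Ednrb, at 107 RPKM against the next at 55.9 RPKM of its group. Cav1 was low in replicate 1 of Flt3+/+ ECs, at 1640 RPKM below the next at 2093 RPKM. Cav2 reached 176 RPKM in replicate 4 of Flt3 ITD/ITD MSCs, above the next at 67.8 RPKM.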

How the results depend on the processing

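Counts of called genes among the 8 kept to within 1.5 times the values given, except in MNCs between genotypes, where edgeR's exact test and DESeq2 called 1 (Ece1) and the quasi-likelihood test 0. The adjusted p of Ece1 in MNCs ran from 0.0309 to 0.724 over all alternatives, and its log2 fold change from 0.87, without replicate 3 of Flt3 ITD/ITD MNCs, to 1.42. The number of genes with a permutation p below 0.05 (1 of 24) ran from 0 to 2 as each library was left out, 0 being fixed where 4 against 3 MNC libraries cannot reach a p below 0.0571. Ptgis in ECs against MNCs ran from 1.45 to 5.36 and was the call that single libraries ended. Leaving out the 2 Flt3+/+ ECs with high Ednra made Ednra called lower in ECs than in MNCs (-3.60; edgeR, adjusted p = 0.0127).

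Directions that turned belonged to differences that were not called. For Cav1 between genotypes they were 0.018 in ECs with no filter. In MSCs they were 0.0050 with RLE, 0.0020 with no filter, 0.0059 with DESeq2 and 0.0019 in the model of all libraries. Without replicate 5 of Flt3 ITD/ITD MSCs, the MSC library with the highest leukocyte markers, the value for Cav1 in MSCs was 0.025. Ednra between genotypes in MNCs was 0.0076 with no filter and 0.019 in the model of all libraries. In Flt3+/+ libraries only, Ednra in ECs against MNCs was 2.01 and Ednrb in MSCs against MNCs -0.26. Without the 2 ECs with high Ednra, its interactions were 1.01 and 0.93. As single libraries were left out, the genotype difference ran from -0.072 to 0.098 for Cav1 and -0.15 to 0.36 for Ednrb in ECs, from -0.098 to 0.10 for Cav1, -0.53 to 0.65 for Ednra and -0.31 to 0.48 for Ptgis in MSCs, and from -0.83 to 3.02 for Ednra in MNCs. Ednra in ECs against MNCs ran from -1.25 to 0.92 and Ednrb in MSCs against MNCs from -0.57 to 0.72.

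Deviations of same-numbered libraries from their group means had correlations of -0.072 to 0.066 over genes. Whether same-numbered libraries were processed together was not tested. With the replicate number as a block, none of the 8 was called between genotypes (0 in ECs, MSCs and MNCs), and turned values were 0.022 for Cav1, 0.63 for Ednra and -0.047 for Ptgis in MSCs, 2.45 for Ednra in MNCs and -0.71 for Ednrb in MSCs against MNCs. The causes of these changes were not tested. The biological coefficient of variation, 0.98 for ECs, 0.87 for MSCs and 0.48 for MNCs, sets the precision, and genotype differences of low genes such as Ednra had wide errors.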
